A study of Glycine max with 12 samples.

Results

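The genes described here are soybean (Glycine max) genes for auxin carriers, auxin-binding proteins and auxin-induced or auxin-repressed proteins, followed in roots of 2 varieties exposed to aluminium. They were chosen by the title in the array's annotation alone: a title naming an auxin efflux carrier, auxin transporter, auxin-binding protein, auxin-induced protein, auxin-repressed protein or auxin down-regulated protein was taken, and titles with 5NG4 or "auxin-responsive protein" were left out. This gave 204 of 66195 main probe sets, a probe set being the group of probes that measures 1 transcript. Of these, 169 list 1 gene, for 162 distinct genes, and 35 list several. The titles put 18 in the influx carriers, 21 in the efflux carriers and 11 in the auxin-binding proteins. Another 3 are auxin-repressed or auxin down-regulated, 132 are of the SAUR type, 10 carry Aux/IAA names (AUX22, AUX28, 22A to 22E) and 9 are titled PCNT115.

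Auxin is the growth hormone that sets the rate of cell elongation and division in the root tip, and it reaches its targets by directed transport. Influx carriers of the AUX1/LAX family bring auxin into the cell and PIN efflux carriers let it out on 1 side, so that their levels and positions set the auxin gradient of the tip. SAUR (small auxin up RNA) proteins are small products of early auxin-induced genes, and in Arabidopsis several of them promote cell expansion. Aux/IAA proteins are short-lived repressors of auxin-induced transcription. PCNT115 is a tobacco name for an auxin-induced protein of the aldo-keto reductase family. Aluminium ions in acid solution inhibit root elongation, and changes of auxin transport in the root tip are known to accompany this in Arabidopsis.

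The 2 varieties were Guangfengmaliaodu (GF), which is Al-sensitive, and KF, which is Al-tolerant. Seedlings germinated for 3 days in sand and then stood in 0.5 mM CaCl2 at pH 4.3, so that the control roots too were in acid solution, with 0 or 25 µM AlCl3. Roots were taken after 6, 12 and 24 h. There was 1 array for every variety, treatment and time, 12 in all and none replicated, so an Al effect is the mean difference over pairs of an Al and a control array of the same variety and time, in log2 units. Its standard error (SE) and p over both varieties rest on how much that difference varied between the n = 6 pairs. An effect in 1 variety is a mean over n = 3 pairs. Its SE pools the variation between times within both varieties, from 1 fit to all 12 arrays. GF and KF therefore have the same SE, and a p in 1 variety depends on the pairs of the other too. In each case limma also draws the spread toward that of other probe sets.

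The medians of all probe sets lay between 1.80 and 1.89 (log2 intensity) on the 12 arrays. A probe set is called above background here when it exceeds the 95th percentile of the array's 23 antigenomic background probe sets, which was 6.18 on the GF 24 h control array and 4.87 to 5.60 on the other arrays. Between 4592 and 8185 main probe sets passed this level per array, except for 2479 on the GF 24 h control array. The KF 24 h Al array stood apart from the others: its median correlation with them was 0.792, against 0.890 for GF in Al at 24 h and 0.932 to 0.966 for the other 10. The array's positive control probe sets were lower in Al in all 6 pairs, with median differences of -0.46, -0.37 and -0.71 in GF and -0.31, -0.64 and -1.06 in KF at 6, 12 and 24 h. Those of the polyA spike probe sets were 0.06, -0.18 and -0.87 in GF and 0.12, 0.07 and -0.29 in KF. A root list of 79 probe sets was taken by words in the title, SCARECROW among them, so it also holds genes other than the markers named next. Of the 79, 2 to 16 were above background per array. Of 9 casparian strip membrane protein probe sets 3 were above it on any array, LOC100775221 on 9 of them. Of 6 titled protein SCARECROW 1 was, LOC100806779, also on 9. Titles of WOX5, SHORT-ROOT and PLETHORA type were above it on none. On each array 2 to 3 of 54 leaf or shoot probe sets, 4 to 7 of 29 nodule and 0 of 9 seed storage probe sets were above it. Summed linear intensity ranged from 999 to 1875 for the root list, 344 to 594 for leaf and shoot, 464 to 1669 for nodule and 19.1 to 21.7 for seed storage.

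Most of the auxin genes gave low values in these roots, as did most probe sets of the array. Of the 204 probe sets, 35 were above background on at least 1 array and 6 on all 12. The filter on low values left 131 for testing. Among those tested, 35 of 131 members and 11709 of all 49646 probe sets were above background on at least 1 array. The other 73 never exceeded 1.53 and none differed 2-fold between Al and control in any pair, the largest difference being 0.70 log2 units. The SAUR type lost most, with 70 of 132 tested, while 16 of 18 influx carriers, 16 of 21 efflux carriers, 7 of 11 binding proteins and all members of the 3 other classes were tested. The carriers left out were LAX2, PIN3B, PIN9C, LOC100795531, LOC100801456, LOC100801227 and 1 of 2 probe sets of LOC100776090. Just below the filter lay PIN3B, with a mean of 1.08, and just above it LOC100816234, with 1.12. Where a whole set of arrays was below background, a fold is given below only as a lower bound, with that array's background level in place of its value, and no fold is given where both sides were below it. For called members of that kind the measured means of controls and Al roots are given with the adjusted p, and they show a difference among values not above background. Effects in log2 units printed for members that were not called and had such values, PIN2B among them, describe the measured values and are not folds of expression.

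Over both varieties and all times, 5 of the 131 tested members rose in Al and 6 fell (limma, adjusted p under 0.05). That is 8.40% of them, against 15.4% of all 49646 probe sets tested, of which 7.3% rose and 8.11% fell. The median Al effect of the members was -0.03, and that of all tested was -0.04. In GF alone 1 member rose and 2 fell, against 0.828% of all probe sets (0.719% up, 0.109% down), and in KF alone 2 rose and 4 fell, against 5.48% (2.78% up, 2.7% down). The 5 that rose were 2 PCNT115-type and 3 SAUR-type genes, and the 6 that fell were 4 auxin-binding proteins, 1 influx carrier (LAX4) and the auxin down-regulated gene ADR11. Of these 11, 3 that fell (all auxin-binding proteins) and 2 that rose (LOC100779078 and LOC100793103) were below background on all 12 arrays. Without the KF 24 h pair 5 rose and 9 fell, and without all 24 h arrays 5 rose and 6 fell. Calls among all probe sets numbered 6753 and 6384 in these fits, against 7647 with all arrays. Leaving out the GF 24 h pair gave 7 calls among members and 3719 among all probe sets. Dropping KF at 12 h gave 5 among members and 2393 among all. In both of the latter fits the count was thus lower for members and for all probe sets alike.

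Single pairs of arrays were compared by size alone, as the number of members at least 2-fold apart, either way. In GF these were 9 at 6 h, 10 at 12 h and 20 at 24 h, which is 6.87%, 7.63% and 15.3% of the 131 tested, against 5.29%, 7.43% and 14.3% of all probe sets. In KF they were 8, 25 and 37, or 6.11%, 19.1% and 28.2%, against 6.05%, 11.6% and 25.3%. The count thus grew with time in both varieties, as it did over all probe sets. At 24 h 13 members were lower and 7 higher in GF, against 5.51% and 8.76% of all probe sets, and 29 were lower and 8 higher in KF, against 14.0% and 11.3%.

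**Figure D1:**
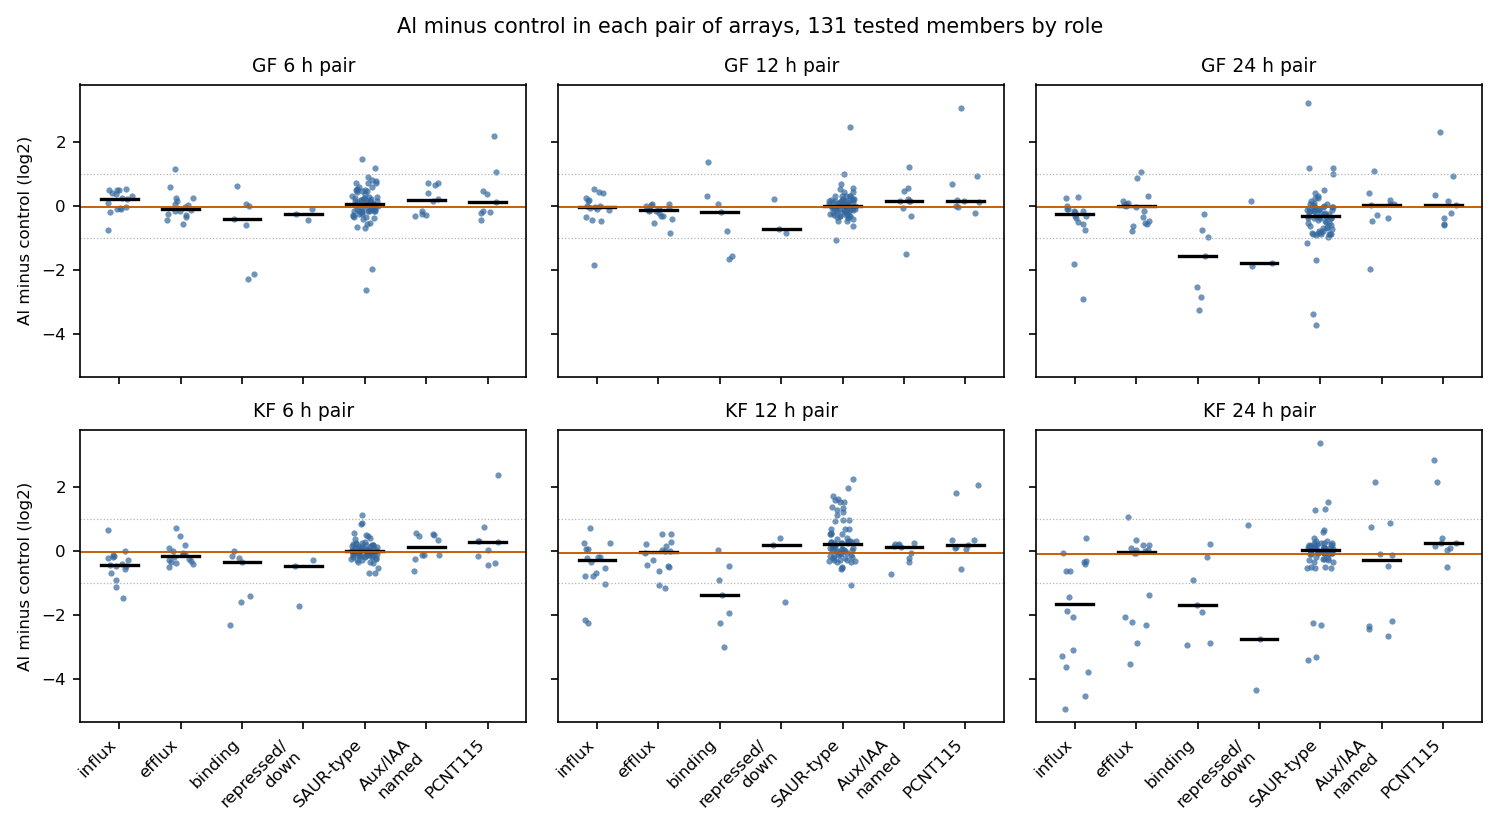
Al minus control difference (log2) of each tested member in the 6 pairs of arrays, by class. Each point is 1 probe set, the black bar is the median of the class, the orange line is the median of all probe sets tested and the dotted lines mark a 2-fold difference. The influx carriers reach their lowest median, -1.66, in the KF 24 h pair.

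Among the influx carriers LAX4 fell in Al over both varieties. The median Al effect of the 16 tested was -0.34, and LAX4 was the 1 that passed the threshold. LAX4 (GLYMA03G09140, chromosome 3, 10723372 to 10729077, minus strand, assembly V1.0) measured 6.57, 5.90 and 5.77 in GF control roots at 6, 12 and 24 h, and 5.81, 4.07 and 2.87 in Al. In KF the control levels were 6.83, 6.71 and 6.80, against 5.36, 4.46 and 2.29 in Al. At each time and in each variety the Al array was below its control, and in both varieties the Al level was lower at each later time. LAX4 fell by 2.29 ± 0.43 (SE, n = 6 pairs; limma adjusted p = 0.0139), which is 4.89-fold as measured, with 5 of 6 control and 2 of 6 Al arrays above background. With values raised to the background level the effect was -1.24 (limma adjusted p = 0.000419). In the GF 24 h pair both LAX4 values were below background, so there that setting compares only the background levels, 6.18 in control and 4.92 in Al. The -1.24 and its p are therefore in part a difference between background levels. In KF LAX4 fell by 2.75 ± 0.61 (n = 3 pairs, adjusted p = 0.0479), and in GF the difference was -1.83 ± 0.61 (n = 3 pairs, adjusted p = 0.229). Its effects in the varieties differed by -0.91, with an adjusted p of 0.953. Without the KF 24 h pair the effect over both varieties was -1.84 (adjusted p = 0.00664), and without the KF 12 h pair its adjusted p was 0.0512. The KF call was lost in 5 of 6 fits that left out 1 pair, the exception being without the KF 6 h pair, with adjusted p from 0.0571 to 0.164 where lost.

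LAX3 lies near LAX4 on chromosome 3 (10607467 to 10616175, plus strand) and was close to its controls in GF. Its GF control levels were 7.08, 6.73 and 6.03 at 6, 12 and 24 h, and its GF Al levels were 6.98, 6.71 and 5.88. In KF the controls were 7.34, 7.28 and 7.11 and the Al arrays 6.80, 6.51 and 3.33. The KF 24 h Al array was the single low one among the 12. The LAX3 effect over both varieties was -0.89 ± 0.47 (n = 6 pairs, adjusted p = 0.232), and -0.32 without the KF 24 h pair.

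LAX8 (GLYMA06G11540, chromosome 6, 8902381 to 8905272, plus strand) measured 5.67, 5.40 and 6.06 in GF controls and 5.48, 5.55 and 4.25 in GF Al roots. In KF it measured 6.46, 6.29 and 5.56 in controls and 5.55, 4.14 and 0.63 in Al. The 24 h Al array was thus the lowest of each variety. The effect over both varieties was -1.64 ± 0.60 (adjusted p = 0.0981), and the KF effect was -2.66 ± 0.72 (adjusted p = 0.0758), so neither passed.

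LAX1 (GLYMA01G28310, chromosome 1) had 2 probe sets that disagreed. Probe set 11779638, over positions 37913486 to 37916989, gave 5.93, 5.96 and 5.81 in GF controls and 6.16, 5.62 and 5.32 in GF Al roots. In KF it gave 6.19, 6.36 and 5.93 in controls and 5.79, 5.34 and 2.32 in Al, for an effect over both varieties of -0.94 ± 0.45 (adjusted p = 0.189). Probe set 11779636, over positions 37912370 to 37912539, may bind transcripts of several genes. It was higher in Al in 6 of 6 pairs, by 0.45 ± 0.15 (adjusted p = 0.0785), and in KF at 24 h it measured 6.11 in Al against 5.69 in the control.

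None of the 16 tested efflux carriers passed the threshold over both varieties, against 15.4% of all probe sets, and their median effect was -0.08. The limma fit gave 4 of them an unadjusted p under 0.05, against 32.4% of all probe sets. PIN1A (GLYMA08G05900, chromosome 8, 4209604 to 4213293, plus strand) measured 5.55, 5.17 and 4.64 in GF controls and 5.12, 4.31 and 3.86 in GF Al roots. Its KF levels were 5.36, 5.54 and 5.40 in controls and 5.03, 4.41 and 1.86 in Al. It was lower in Al in 6 of 6 pairs, by -1.18 ± 0.40 on average (adjusted p = 0.0793). Without the KF 24 h pair the difference was smaller and varied less, at -0.71 with an adjusted p of 0.0267.

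PIN1B (GLYMA07G11550, chromosome 7, 9739171 to 9743252, plus strand) was above background on 11 of 12 arrays. Its GF levels were 7.45, 7.45 and 6.52 in controls and 7.41, 6.92 and 5.97 in Al, and its KF levels 7.34, 7.41 and 7.27 in controls and 6.95, 6.80 and 4.40 in Al. It was lower in Al in every pair, least at 6 h, with an effect of -0.83 ± 0.35 (adjusted p = 0.138), and -0.42 without the KF 24 h pair. PIN2B, of the root-tip PIN2 type, gave GF levels of 4.76, 4.70 and 4.38 in controls and 4.52, 4.63 and 3.86 in Al, and KF levels of 4.18, 4.87 and 4.71 against 4.39, 3.82 and 2.39. All 12 values were below background. PIN1C gave GF levels of 5.06, 5.31 and 4.43 in controls and 5.31, 4.99 and 4.26 in Al, and KF levels of 5.32, 5.43 and 5.37 against 4.94, 5.0 and 3.17. For both genes the KF 24 h Al array was the lowest of the 12, and their effects were -0.66 ± 0.31 (PIN2B, adjusted p = 0.184) and -0.54 ± 0.30 (PIN1C, adjusted p = 0.245).

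Seen together, the carriers of both kinds were lower on the KF 24 h Al array than on its control. Of the 32 tested, 15 were at least 2-fold lower and 1 was higher in that pair, against 14.0% of all probe sets lower and 11.3% higher. In the GF 24 h pair 2 were lower and 1 higher, against 5.51% and 8.76%. Of the 18 influx carrier probe sets, tested or not, 5 may bind transcripts of several genes. Carrier counts, here and below, may thus not all be separate measurements. Carriers with a mean log2 intensity of 4 or more, a level set after the values were seen and so described without a test, numbered 16. Of these 14 were at least 2-fold lower in the KF 24 h pair, with a median of -2.59 and a range from -4.94 to 0.41. The share among all 11957 probe sets of that intensity was 36.5%. The exceptions were LAX7, with -0.04, and probe set 11779636 of LAX1, with 0.41. In the GF 24 h pair 2 of the 16 were at least 2-fold lower, LAX4 and LAX8, against 14.6% of all. In the KF 12 h pair there were 5, against 12.2%, in the GF 12 h pair 1 against 5.45%, in the KF 6 h pair 1 against 4.07%, and in the GF 6 h pair 0 against 2.91%.

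On the KF 24 h control array 13 of these 16 carriers were above background, and on the KF 24 h Al array 2 were. Taking the background level for the dim side, 8 were still at least 2-fold lower: PIN1B by at least 4.84-fold, LAX3 by at least 4.34-fold, LOC100777097 by at least 4.13-fold, LAX4 by at least 3.50-fold, LAX9 by at least 3.01-fold, LAX15 by at least 2.94-fold and PIN2A by at least 2.67-fold, with LAX12 measured on both arrays and 2.72-fold lower. By the same rule none of the 16 was 2-fold lower in GF at 24 h, where 4 control and 10 Al values were above background. The background level of the GF 24 h control array was 6.18, and a control value below it could not be counted as lower. LAX4 and LAX8, at least 2-fold lower there as measured, were below background on both arrays. The GF count therefore cannot be set against the KF count. The difference between varieties itself did not pass for any carrier. The smallest adjusted p among the 32 was 0.953, with no unadjusted p under 0.05 (smallest 0.0729). The 24 h difference in KF rests on 1 Al array, the one that stood apart. The title lists moved in the same pair, and the root list holds genes other than markers. From control to Al the summed intensity went from 999 to 1875 for the root list (8 and 14 of 79 above background). It went from 1329 to 464 for nodule titles and from 486 to 344 for leaf and shoot. In the GF 24 h pair these sums went from 1035 to 1683, from 1153 to 1090 and from 594 to 416. Their part in the carrier difference, and that of the lower positive controls, was not tested. In these bulk roots, fewer cells of a type and less RNA per cell cannot be told apart.

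**Figure D2:**
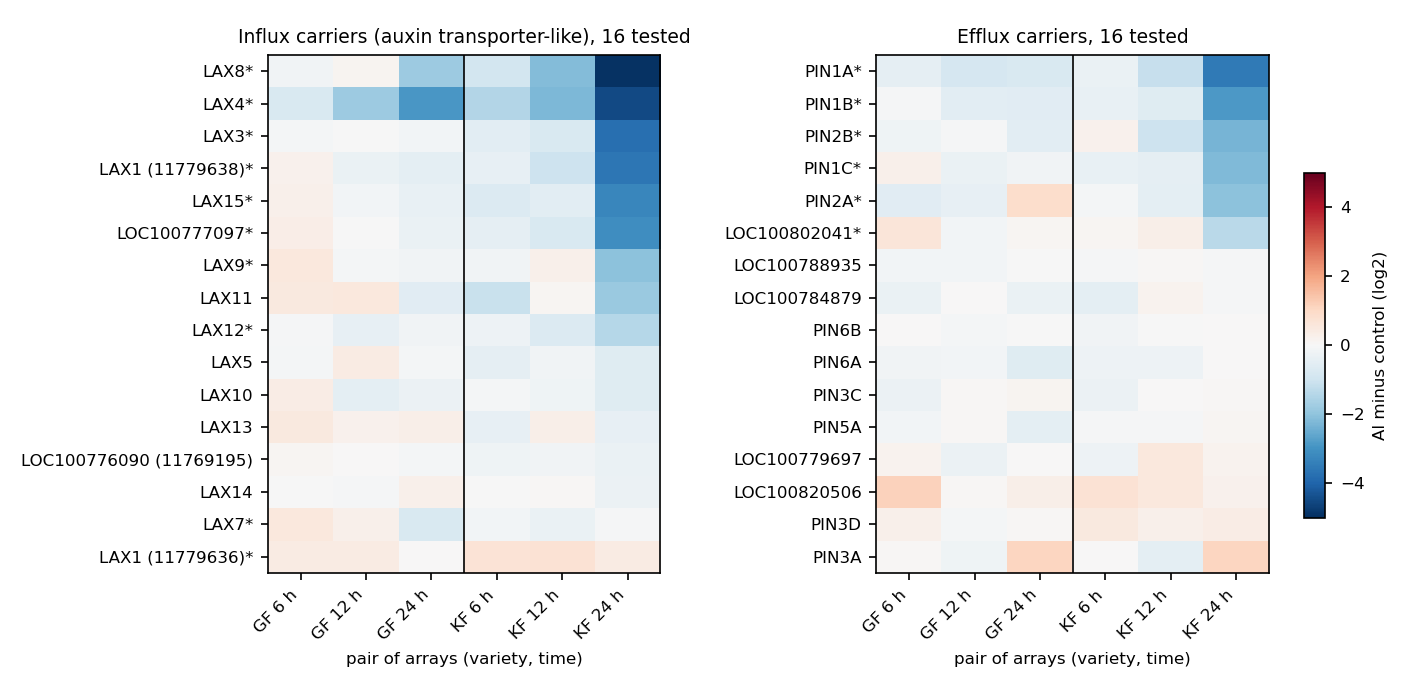
Al minus control difference (log2 colour scale) in each of the 6 pairs of arrays for the 16 tested influx carriers and the 16 tested efflux carriers, sorted by the KF 24 h pair; an asterisk marks a mean log2 intensity of 4 or more. The right-hand column of each panel (KF 24 h) holds the 14 lower bright carriers, from -4.94 for LAX8 to -1.36 for LOC100802041.

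Auxin-binding proteins made up 4 of the 6 members that fell. Of 7 tested, 4 fell over both varieties and none rose, and their median effect was -0.96, against 8.11% of all probe sets that fell and 7.3% that rose. Of the 4, 3 were below background on all arrays. Most are titled ABP19a-like, a germin-like protein first named in peach. LOC100809937 (GLYMA16G07550, chromosome 16, 6838760 to 6839383, plus strand) measured 3.31, 3.27 and 4.49 in GF controls and 1.02, 1.63 and 1.24 in Al. KF roots gave 3.68, 4.27 and 2.66 in controls and 1.36, 1.26 and 0.99 in Al. All 6 Al values were below all 6 control values, already at 6 h, and all 12 were below background, so that neither a fold nor its log is given. The means were 3.61 in controls and 1.25 in Al (n = 6 pairs, limma adjusted p = 0.00113). They were 3.69 and 1.30 in GF (adjusted p = 0.0325) and 3.53 and 1.21 in KF (adjusted p = 0.0164), with an adjusted p of 0.989 for a difference between the varieties' effects. Leaving out 1 pair kept the call over both varieties each time. The GF call was kept only without the KF 24 h pair, with adjusted p from 0.0569 to 0.155 in the other 5 fits, and the KF call was lost without the KF 12 h pair (0.111).

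LOC100813853 (GLYMA07G04320, chromosome 7, 3167203 to 3168077, plus strand) ran alongside it. It measured 4.60, 4.72 and 4.75 in GF controls and 2.48, 3.15 and 2.22 in GF Al roots. In KF it measured 3.83, 4.33 and 4.03 in controls and 2.44, 2.38 and 1.08 in Al. Control and Al values did not overlap, and again none was above background. The means were 4.38 in controls and 2.29 in Al over both varieties (adjusted p = 0.00144), 4.69 and 2.62 in GF (adjusted p = 0.0422) and 4.06 and 1.97 in KF (adjusted p = 0.019). Without 1 pair the call over both varieties was kept; the GF call was lost in 4 of 6 such fits (adjusted p 0.101 to 0.233) and the KF call without the KF 12 h pair (0.114).

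LOC100813853 lies in a row of ABP19a-like genes on chromosome 7, and its neighbours ran different courses. Probe set 11902170 (3202624 to 3203476, plus strand), for a pair of such genes, was above background on all 12 arrays. It measured 9.20, 8.97 and 9.61 in GF controls, 9.28, 9.27 and 8.04 in GF Al roots, 9.06, 8.89 and 8.83 in KF controls, and 8.72, 7.52 and 5.95 in KF Al roots. Only the later Al arrays were low, and the Al effect was -0.96 ± 0.40 (adjusted p = 0.135). Probe set 11913593 (3173323 to 3174306, minus strand) gave 5.03, 4.70 and 6.51 in GF controls against 5.67, 6.07 and 3.64 in Al, and 5.22, 4.18 and 4.60 in KF controls against 3.63, 1.93 and 2.72 in Al. In GF its direction turned between 12 and 24 h, while in KF all 3 pairs were lower in Al, and the effect over both was -1.10 ± 0.55 (adjusted p = 0.208). LOC100818105 (3179808 to 3180833, plus strand), of the same row, stayed between 0.66 and 2.85 on all arrays. Its means were 1.66 in controls and 1.29 in Al, lower in 6 of 6 pairs (adjusted p = 0.0343), and this call was lost in 5 of 6 fits without 1 pair (adjusted p 0.0511 to 0.104) and with additive terms in place of blocks (0.132).

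The gene titled auxin-binding protein 1, a protein of the endoplasmic reticulum and cell surface long studied as an auxin receptor candidate, is LOC100801817 (GLYMA02G16890, chromosome 2, 15224460 to 15228005, minus strand). It measured 5.95, 6.20 and 5.52 in GF controls and 5.35, 5.41 and 4.53 in GF Al roots, and 5.58, 5.95 and 5.58 in KF controls against 5.43, 5.04 and 4.68 in Al. Each Al value was below its own control, but the groups overlapped. It fell 1.65-fold, by 0.72 ± 0.16 (adjusted p = 0.0227), with 5 control and 3 Al arrays above background. The call was lost without the GF 12 h pair (0.0593), the GF 24 h pair (0.0641) or the KF 12 h pair (0.0825).

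**Figure D3:**
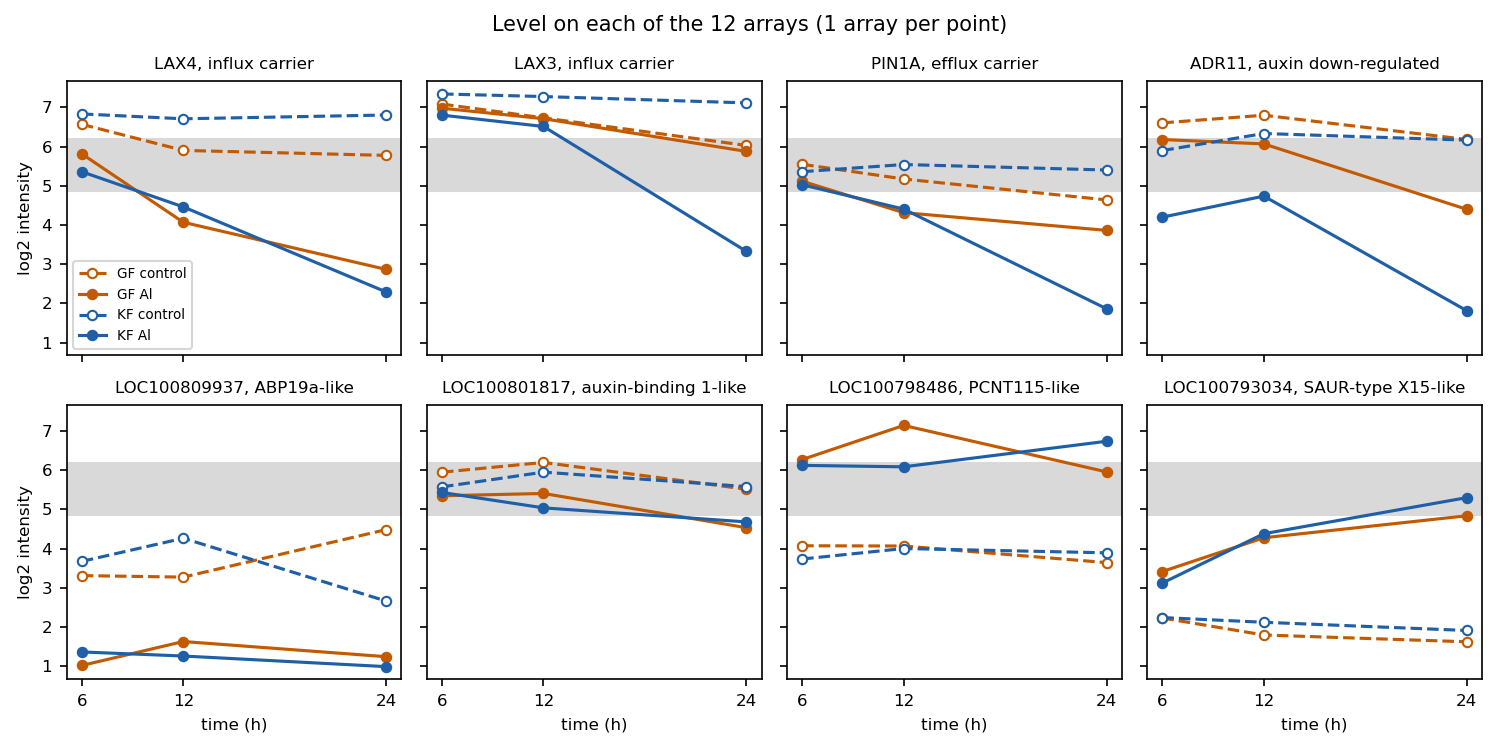
Log2 intensity against time in Al solution (h) for 8 members, with GF in orange, KF in blue, controls as open symbols with dashed lines and Al as filled symbols with solid lines; each point is 1 array. The grey band is the range over the 12 arrays of the background level, 4.87 to 6.18. LOC100809937 is lower in Al at all times, while LAX3 is low on the KF 24 h Al array alone.

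ADR11 (GLYMA17G11940, chromosome 17, 8986136 to 8988208, plus strand), a soybean gene named for its fall after auxin treatment, fell in Al as well. In GF it measured 6.60, 6.80 and 6.18 in controls and 6.18, 6.07 and 4.40 in Al. In KF it measured 5.90, 6.33 and 6.16 in controls and 4.20, 4.74 and 1.81 in Al. The controls of the varieties lay close together, and each KF Al value was below the GF Al value of the same time. It fell by 1.76 ± 0.46 over both varieties as measured (adjusted p = 0.0361), with 5 of 6 control and 2 of 6 Al arrays above background. With values raised to the background level the effect was -0.96 (limma adjusted p = 0.00189). For ADR11 too, both GF 24 h values were below background, so that pair compares only the background levels, 6.18 in control and 4.92 in Al. The -0.96 and its p are thus in part a difference between background levels. In KF ADR11 fell by 2.55 ± 0.55 as measured (adjusted p = 0.0448). The KF fold was at least 2.17, since no KF Al array was above background, and the GF difference was -0.98 ± 0.55 (adjusted p = 0.44). Between Al roots of KF and GF the difference was -1.97 ± 0.25 (adjusted p = 0.00579), and between control roots -0.40 (adjusted p = 0.555). The test of the varieties' Al effects against each other gave -1.57 with an adjusted p of 0.953. Without the KF 24 h pair ADR11 still fell over both varieties, by 1.25 (adjusted p = 0.0128). That call was lost without the GF 12 h pair, the GF 24 h pair, the KF 6 h pair or the KF 12 h pair (adjusted p 0.0519 to 0.095), and the KF call was lost in all 6 such fits (0.0531 to 0.129). The KF minus GF call in Al roots was kept whenever arrays of 1 treatment and time were left out, and it was lost with additive terms in place of blocks (adjusted p = 0.153).

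Probe set 11985282, for a pair of auxin down-regulated genes, was above background on 11 arrays. It measured 6.62, 6.66 and 7.90 in GF controls and 6.38, 6.88 and 6.03 in GF Al roots, and 7.28, 6.84 and 7.18 in KF controls against 6.83, 7.02 and 4.42 in Al. Only the 24 h Al arrays stood clearly below their controls, and the effect was -0.82 ± 0.41 (adjusted p = 0.203). The auxin-repressed 12.5 kDa protein gene LOC100799417 stayed between 1.46 and 2.67 on all arrays, with an effect of 0.03 ± 0.20 (adjusted p = 0.937).

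The SAUR type is the largest class. Of its 132 probe sets 7 were above background on any array and 65 may bind transcripts of several genes. They sit close together on the chromosomes, as SAUR genes do in other plants. With gaps of up to 50 kb allowed, 96 of the 132 fall into 9 clusters of 5 or more, and 15 stand alone. The largest cluster is on chromosome 6, from 46457387 to 46560697, with 31 probe sets, of which 26 may bind several genes. Of its 23 tested members none was called for Al over both varieties, none had an unadjusted p under 0.05 (limma), and their effects ran from -0.27 to 0.44. The cluster on chromosome 9, from 41499521 to 41600658, holds 21 probe sets with 5 tested, and that on chromosome 12, from 2542874 to 2597540, holds 12 with 5 tested. In 4 cases a pair of SAUR probe sets had the same value on all 12 arrays, so that these 8 are 4 measurements.

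Of the 70 SAUR-type probe sets tested, 3 rose over both varieties and none fell, against 7.3% and 8.11% of all probe sets, with a class median of -0.00. LOC100793034, titled X15 (chromosome 4, 46841192 to 46842113, minus strand), measured 2.23, 1.80 and 1.62 in GF controls and 3.42, 4.28 and 4.84 in GF Al roots. Its KF levels were 2.24, 2.12 and 1.91 in controls and 3.12, 4.38 and 5.30 in Al. The groups did not overlap, and in both varieties the Al level was higher at each later time. It rose by 2.23 ± 0.34 (n = 6 pairs, adjusted p = 0.00662), and by 2.0 without the KF 24 h pair. Only the KF 24 h Al array was above background, so this is a difference among low values. With all values raised to the background level the result was -0.20. Apart from that 1 array it is made of the arrays' background levels, so it says little of this gene.

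LOC100806385, titled 10A5 (GLYMA16G02350, chromosome 16, 1894112 to 1895092, minus strand), rose as well. It measured 5.32, 5.86 and 5.94 in GF controls and 5.81, 6.87 and 6.96 in GF Al roots. In KF it measured 5.43, 4.80 and 4.56 in controls and 5.94, 5.94 and 5.85 in Al. Every Al value was above its own control. It rose 1.88-fold, by 0.91 ± 0.16 (adjusted p = 0.0119), with 3 control and 6 Al arrays above background, and its adjusted p was 0.0532 without the KF 12 h pair. LOC100793103, another X15 title (GLYMA15G41130, chromosome 15, 48222100 to 48223036, plus strand), measured 2.97, 3.01 and 3.39 in GF controls against 3.49, 3.70 and 4.58 in Al, and 3.09, 2.91 and 2.81 in KF controls against 3.14, 4.14 and 4.35. All were below background. The means were 3.03 in controls and 3.90 in Al (adjusted p = 0.0281), a call lost without the GF 12 h pair (0.0581), the GF 24 h pair (0.0784), the KF 12 h pair (0.0931) or all 24 h arrays (0.0863).

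Larger but less regular differences did not pass. LOC100803474, titled X10A (GLYMA12G03771, chromosome 12, 2542874 to 2543239, minus strand), may bind transcripts of several genes and was below background throughout. It measured 4.91, 4.55 and 4.83 in GF controls against 2.27, 3.50 and 1.12 in Al, and 2.32, 2.53 and 2.83 in KF controls against 1.65, 2.40 and 2.49 in Al. GF controls alone were high. The adjusted p of the Al effect was 0.0636 in GF and 0.631 in KF, and their difference had an unadjusted p of 0.0117 and an adjusted p of 0.953. In control roots the means were 2.56 in KF and 4.76 in GF (adjusted p = 0.0368), and in Al roots 2.18 and 2.30 (adjusted p = 0.936). That control call was lost in 4 of 6 fits that left out the arrays of 1 treatment and time, with adjusted p from 0.0533 to 0.219, and with additive terms (0.0837). Probe set 11832203, for a pair of 15A-titled genes and able to bind several, gave 5.09, 4.31 and 5.20 in GF controls against 3.11, 4.40 and 1.81 in Al, and 4.12, 4.26 and 4.38 in KF controls against 3.99, 3.20 and 0.99, with an effect of -1.64 ± 0.50 (adjusted p = 0.0597).

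In the KF 12 h pair 12 of the 70 tested SAUR-type probe sets were at least 2-fold higher in Al, by 1.14 to 2.26 log2 units, against 5.75% of all probe sets. They measured 1.27 to 4.80 in the KF 12 h control and 2.68 to 5.94 in Al, and 2 of them were above background on any array. Of the 12, 8 lie in the chromosome 6 cluster and 8 may bind several genes' transcripts, so they are not separate measurements. The same 12 differed by -0.38 to 2.48 in the GF 12 h pair, where 2 were at least 2-fold higher, by 0.05 to 0.88 in the KF 6 h pair and by -0.34 to 3.39 in the KF 24 h pair. With 1 array on each side there is no test of this pattern. SLR1 (GLYMA10G32340, chromosome 10), titled ali50, falls into this class by the order of the rule, although its title holds no SAUR name, and it is named here after its values were seen. It was above background on 11 arrays, its GF differences were 0.37, -0.00 and -0.64 at 6, 12 and 24 h, and its KF differences were -0.12, -0.19 and -3.31, with an effect of -0.65 ± 0.44 over both varieties (adjusted p = 0.355).

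None of the 10 Aux/IAA-named probe sets passed over both varieties (limma), against 15.4% of all probe sets, 4 had an unadjusted p under 0.05, against 32.4%, and their median effect was 0.13. LOC100811879, titled 22C (GLYMA15G01560, chromosome 15, 1013178 to 1016503, minus strand), measured 6.41, 7.27 and 7.32 in GF controls against 6.57, 5.78 and 5.35 in Al, and 5.42, 5.83 and 5.78 in KF controls against 5.32, 5.12 and 3.44 in Al. At 6 h Al and control lay close together in both varieties, and the gap widened with time. The Al effect was -1.07 ± 0.34 (adjusted p = 0.0695). LOC100780214, titled AUX28, stayed between 7.09 and 7.44 on 11 arrays by its probe set 11802824, with 7.44, 7.38 and 7.36 in GF controls, 7.16, 7.33 and 7.09 in GF Al roots, 7.33, 7.35 and 7.14 in KF controls, and 7.21, 7.31 and 4.69 in KF Al roots. Its other probe set, 11802819, gave 4.80 to 5.33 in GF and 4.48 to 5.22 in KF, apart from 2.02 on the KF 24 h Al array. A further AUX28 gene, LOC100810013, measured 5.35, 5.01 and 5.21 in GF controls against 5.03, 5.22 and 4.72 in Al, and 5.36, 5.20 and 5.41 in KF controls against 4.75, 4.85 and 3.22. For both genes the low value was again that of the KF 24 h Al array. Probe set 11790581, for a pair of 22D-titled genes, was highest on the 24 h Al arrays, with 3.90 in GF and 4.86 in KF against 2.60 to 3.29 on the other 10, all below background.

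The largest rise among the 131 tested members was in the PCNT115 type. LOC100798486 (GLYMA03G40870, chromosome 3, 46486302 to 46488618, minus strand) measured 4.07, 4.07 and 3.64 in GF controls and 6.27, 7.14 and 5.96 in GF Al roots. KF roots gave 3.74, 4.0 and 3.89 in controls and 6.12, 6.09 and 6.74 in Al. All 6 Al arrays were above background and all 6 controls below it, from 6 h on. It rose by 2.48 ± 0.18 (n = 6 pairs, adjusted p = 0.000254), at least 2.11-fold against the background level. It rose by 2.53 ± 0.27 in GF (adjusted p = 0.0119) and by 2.44 ± 0.27 in KF (adjusted p = 0.00577), and the varieties' effects differed by -0.09 (adjusted p = 0.982). Leaving out any 1 pair kept the calls over both varieties and in KF, and the GF call was lost without any 1 of the GF pairs (adjusted p 0.0668 to 0.114).

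LOC100779078 (GLYMA06G40790, chromosome 6, 43976716 to 43980665, minus strand), also titled PCNT115, measured 2.12, 2.24 and 2.11 in GF controls against 3.20, 3.19 and 3.05 in Al, and 2.30, 2.41 and 2.15 in KF controls against 3.07, 4.24 and 4.32 in Al. The groups did not overlap, though all values were below background. The means were 2.22 in controls and 3.51 in Al over both varieties (adjusted p = 0.00777), and in KF the adjusted p was 0.0237, the KF call being lost in 4 of 6 fits without 1 pair (0.0516 to 0.142). Of the same type, LOC100779689 measured 7.81 to 8.11 in controls and 7.39 to 8.04 in Al roots, with an effect of -0.35 ± 0.15 (adjusted p = 0.133). LOC100807798 stayed between 1.67 and 2.27 on all arrays, with an effect of 0.22 ± 0.09 (adjusted p = 0.137). Across the 12 arrays the members most like LOC100798486 were LOC100793034 (Pearson r = 0.896), LOC100779078 (0.844), LOC100780396 titled 22B (0.741), LOC100793103 (0.704) and LOC100809479 titled 22E (0.667), a description over arrays that share treatments and times.

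**Figure D4:**
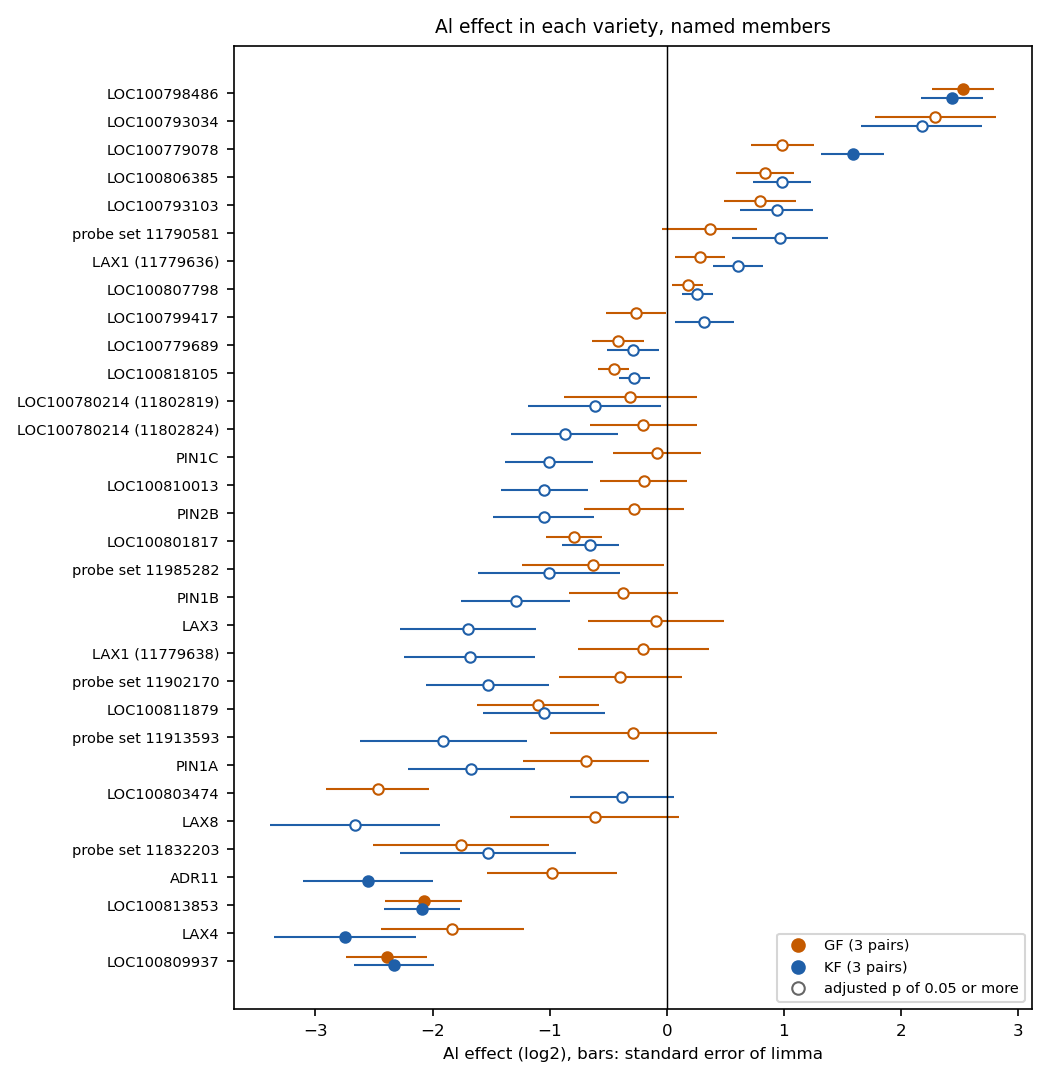
Al effect (log2) in GF and in KF for the members described, a mean over n = 3 pairs per variety. Bars are 1 SE (limma), which is shared by the 2 varieties, and filled symbols passed an adjusted p of 0.05. LOC100798486 sits near 2.5 in both varieties. LOC100809937 is lower in Al in both, with all values below background, so its position is not a fold. The carriers shown have their lower values in KF, except probe set 11779636 of LAX1.

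No member passed the test of a difference between the Al effects of KF and GF, against 0.00403% of all probe sets. Of the 131 members 7 had an unadjusted p under 0.05, against 4.43% of all probe sets, and the count of calls was 0 under every alternative run. In control roots 2 members were lower in KF than in GF, against 1.26% of all probe sets (0.826% higher, 0.435% lower): LOC100803474, above, and LOC100811879, with a difference of -1.32 ± 0.25 (2.50-fold, adjusted p = 0.0423). In Al roots 3 were lower in KF, against 2.25% (1.24% higher, 1.02% lower): ADR11, LOC100811879 with -1.27 ± 0.25 (2.42-fold, adjusted p = 0.0354) and probe set 11902170 with -1.47 ± 0.28 (2.76-fold, adjusted p = 0.0339). The LOC100811879 calls were lost in 4 of 6 (control, 0.0725 to 0.309) and 5 of 6 (Al, 0.0607 to 0.121) fits without the arrays of 1 treatment and time. The call of probe set 11902170 was lost in 5 of 6 (0.0524 to 0.149). With additive terms in place of blocks no member was called in either comparison. No influx carrier was called in either comparison. Between control roots 15 of 16 differences were above 0, with a median of 0.32 (higher in KF), against a median of 0.02 for all probe sets. The limma fit gave 3 of the 16 an unadjusted p under 0.05, against 13.5% of all probe sets. Between Al roots 14 of the 16 were below 0, with a median of -0.20, against 0.0003 for all probe sets. There 5 had an unadjusted p under 0.05, against 15.6%.

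The Al effect differed between 24 and 6 h for 2 members, 1 higher and 1 lower at 24 h, against 2.12% of all probe sets (1.95% higher, 0.171% lower). For LOC100793034 the effect was 2.27 ± 0.31 larger at 24 h (adjusted p = 0.0159), and for LOC100811879 it was lower, by -2.18 ± 0.39 (adjusted p = 0.0412). The first call was lost in 4 of 6 fits without 1 pair (adjusted p 0.0534 to 0.147) and the second in 5 of 6 (0.0699 to 0.339). Without the GF 24 h pair, 26 members were called, 24 of them lower at 24 h, which is 19.8% of members against 13.0% of all probe sets in the same fit. The level itself, over all arrays, differed between 24 and 6 h past the threshold for no member, against 0.00403% of all probe sets. There 48 of 131 members had an unadjusted p under 0.05 (limma), against 32.2% of all probe sets. Among them were 14 of the 16 influx carriers, whose median was -0.88 and whose smallest adjusted p was 0.0514. This comparison pools control and Al arrays. The Al effect of the same 16 at 24 h minus 6 h had a median of -0.79, so the -0.88 is not a change with time in control roots alone.

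Other genes of the auxin pathway were counted by the same test over both varieties. Of 15 tested probe sets for TIR1 and AFB receptors, the F-box proteins that bind auxin and mark Aux/IAA proteins for breakdown, 3 fell and none rose; TIR1A fell by 0.79 ± 0.19 (adjusted p = 0.0306). Of 41 for auxin response factors, the transcription factors that Aux/IAA proteins hold back, 3 rose and 5 fell, and LOC100803053 (ARF18-like) fell by 1.35 ± 0.19 (adjusted p = 0.00478). Of 25 titled as Aux/IAA repressors under other names, 6 rose and 2 fell, with LOC100812025 (IAA8-like) rising by 1.75 ± 0.30 (adjusted p = 0.00957). Among 31 for conjugation and release, 3 rose and 3 fell, and GH3 enzymes, which join auxin to amino acids, were among those that rose, with LOC100776488 (GH3.1-like) at 1.70 ± 0.36 (adjusted p = 0.0193). Among 29 for synthesis 2 rose and none fell, both of them probe sets of 1 YUCCA6-like gene, LOC100799546 (0.83 ± 0.17, adjusted p = 0.0187, and 0.63 ± 0.14, adjusted p = 0.0222).

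Other transporters and their regulators were counted likewise. Of 35 tested ABCB transporters, a family of pumps of which some move auxin in Arabidopsis, 4 rose and none fell, and LOC100800034 (ABCB4-like) rose by 3.64 ± 0.42 (adjusted p = 0.00235). Of 6 kinases of the PINOID and D6 type, which phosphorylate PIN carriers, 1 rose, LOC100795536 (PINOID-like), by 1.59 ± 0.16 (adjusted p = 0.0014). Of 68 WAT1-type genes 1 rose and 1 fell, and of 9 SAUR genes under ARG7 and other titles 1 rose, LOC100776885, by 1.31 ± 0.17 (adjusted p = 0.00405). Set beside all probe sets, of which 7.3% rose and 8.11% fell, these lists are small. In the KF 24 h pair 1 receptor probe set was at least 2-fold higher and 6 were lower, 7 response factor probe sets were higher and 16 lower, and 9 ABCB probe sets were higher and 4 lower, against 11.3% of all probe sets higher and 14.0% lower. The corresponding counts in the GF 24 h pair were 0 and 2, 3 and 5, and 6 and 1, against 8.76% higher and 5.51% lower.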

How the data were processed

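Per the labels, biotin-labelled cDNA of root RNA was put on 12 Affymetrix arrays, 1 for each variety, treatment and time. The deposited file holds an intensity per entry of the array on a linear scale, which the authors had normalized, as its near equal quartiles show. How they summarised and normalized is not given in the sources used here. In addition the deposit has 24 columns of signals and calls that could not be tied to samples by their names, and these stayed unused. Intensities were turned into log2 without a pseudocount. The filter on low values dropped the lowest 0.25 by mean over all arrays (below 1.12) and kept 49646. Of the 169 members with 1 gene, 112 were found in RefSeq's gene table of soybean, and 30 symbols changed. Gene coordinates are those of the array annotation, which cites assembly V1.0.

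All fits used limma 3.58.1 (lmFit, then eBayes with its trend option), run in R 4.3.3 together with data.table (version 1.17.8), after a check on simulated data. Blocks of variety and time served the Al effects (5 residual degrees of freedom over both varieties, 4 per variety, 3 for 24 h minus 6 h). Blocks of treatment and time served the varieties (4) and blocks of variety and treatment the times (6). Benjamini-Hochberg adjustment ran over all 49646. The number of arrays limits the precision.

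The members and lists were chosen with earlier results of these data known. Named are, per class, the 4 members with the largest Al effect over both varieties, any further called member, up to 4 called in each other comparison, and every probe set of a named gene. From each list of other auxin genes, called genes could be named. Alternatives were another filter, quantile or cyclic loess normalization, 1 added before the logarithm, values raised to the background level, eBayes without trend, additive terms, and each pair left out.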

Additional observations from a re-analysis of the deposited data

Results flagged for a closer look

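The Al effect of 2 members differed between 24 and 6 h by the test of that difference itself (limma). That test sets the 24 h pairs of the 2 varieties against their 6 h pairs. Its spread is that between the varieties at the same time, where the 12 h pairs enter too (3 residual degrees of freedom). For LOC100793034, the SAUR-type gene titled X15, the Al effect was 2.27 log2 units larger at 24 h. That gene was above background on the KF 24 h Al array alone, and its call was lost in 4 of 6 fits without 1 pair. For LOC100811879, the Aux/IAA gene titled 22C, it was lower at 24 h, with a difference of -2.18. This call was lost in 5 of 6 such fits. With 1 array per condition, no array could be set against replicates of its own condition.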

How the results depend on the processing

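Counts of members called moved by more than 1.5 times as follows. With additive terms in place of blocks there were 18 Al calls over both varieties (11 as reported), 5 in GF (3), and 0 each for KF minus GF in control roots (2) and in Al roots (3). Over all probe sets the additive terms moved the Al calls from 7647 to 10777 over both varieties and from 411 to 1352 in GF. The GF calls over all probe sets were 610 with values raised to the background level and 402 without the trend. With values raised to the background level there were 1 in GF, 9 for KF minus GF in control roots and 6 for 24 h minus 6 h over all arrays (0). That setting tested 11709 probe sets and 35 members. Without the trend there were 1 in GF, 1 for KF minus GF in control roots and 3 over time. Over time there were also 3 with the lowest 0.5 filtered out, 3 with quantile and 5 with cyclic loess normalization. Quantile normalization gave 5 for the Al effect at 24 h minus 6 h (2). Raised values put 8 bright carriers 2-fold lower in GF at 24 h (2), where 58.3% of all probe sets of that intensity were lower. In KF they put 8 lower (14), against 15.7% of all. The GF control array's high background level is part of that setting. Bright carriers in KF numbered 12 with cyclic loess, where 23.8% of all were lower. The cause of the other moves was not tested.

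Without 1 pair the calls ranged from 5 to 14 over both varieties, 0 to 5 in GF, 1 to 9 in KF and 0 to 26 for 24 h minus 6 h of the Al effect. They ranged from 0 to 3 for KF minus GF in control roots and 1 to 3 in Al roots, and stayed 0 for the difference of effects and for time. The Al calls over all probe sets ranged from 2393 to 6753 over both varieties (7647 as reported), from 5 to 1423 in GF (411) and from 254 to 3191 in KF (2719). The GF count of members was 0 when any 1 GF pair was dropped and 1 when KF at 12 h was. The KF count of members was 1 when KF at 12 h was dropped and 3 on dropping GF at 6 h, GF at 12 h or KF at 24 h.

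Of 469 values of the 32 named members under these settings, 425 kept direction and side of the threshold, 18 passed newly and 21 no longer passed. Direction turned in 5: LOC100780214 (probe set 11802819) to 0.0639 without all 24 h arrays, LOC100793034 to -0.20 with raised values, and LOC100799417 (0.03 as reported) to -0.20 without all 24 h arrays and, over the fits without 1 pair, to between -0.13 (KF at 24 h dropped) and 0.21 (GF at 12 h dropped), with -0.05 when KF at 12 h was dropped. The raised values of LOC100793034 were background levels on every array but the KF 24 h Al array. The settings for bright carriers and without all 24 h arrays were chosen after seeing the data. Reading values from the unlabelled signal columns was planned and not run. The Al fits already pair each Al array with the control of its variety and time, and a block by replicate number had no basis because the labels carry none.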
